A study of Mus musculus with 20 samples.

Results

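The Hippo pathway genes described here are STK4 and STK3 (the kinases MST1 and MST2), MOB1A, LATS1 and LATS2, STK38 and STK38L (the kinases NDR1 and NDR2), YAP1, WWTR1 (TAZ) and TEAD1. They were chosen by symbol, ignoring case, and all 10 are listed in the table of human genes (60607 genes) and in the table of mouse genes (55335 genes). All 10 passed the filter of a mean of at least 1 TPM, a read density per gene length that sums to 1000000 in every library, in both tables. The choice used the knockdown comparison itself, since the fall of WWTR1 in both species and the rise of mouse Stk38 were the reason for choosing them. Values of these 10 genes under knockdown are therefore given as a description with no p-value.

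The study asked whether human and mouse liver cells respond alike when the RNA-binding protein HuR is lowered. Humanized mice were TK-NOG mice, immunodeficient NOG mice whose liver carries a herpes simplex virus thymidine kinase transgene driven by the mouse albumin promoter. At 8 to 9 weeks of age they received ganciclovir at 25 mg/kg, which kills the cells with the transgene, and later 1000000 human hepatocytes. They entered the study with more than 0.5 mg/ml of human albumin in serum, measured 8 to 12 weeks after transplantation, and the host kept its own mouse non-hepatocyte cells. WT mice were male C57BL/6 mice, 8 weeks old when bought and matched between groups for age and weight. In each model the mice were given either adenovirus with an shRNA against HuR (Humanized HuR KD, n = 4, with the human shRNA, and WT HuR KD, n = 6, with the mouse shRNA) or a control virus (Humanized LacZ, n = 4, and WT LacZ, n = 6). Every mouse received 2000000000 pfu intravenously, and livers were collected on day 7, following 4 h without food. Each library comes from a separate mouse.

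In the Hippo pathway, MST kinases and their scaffolds activate LATS kinases together with MOB1, and LATS kinases phosphorylate YAP and TAZ, which then stay in the cytoplasm or are degraded. Unphosphorylated YAP and TAZ enter the nucleus, bind TEAD factors and turn on genes of growth and matrix. NDR kinases are close relatives of LATS kinases, are activated by MST kinases with MOB proteins, and can phosphorylate YAP too. In liver the pathway is known for its control of organ size and of the choice between hepatocyte and bile duct identity. HuR, encoded by ELAVL1, binds AU-rich and U-rich stretches, many of them in 3′ UTRs, and is known mostly for keeping the bound mRNA stable. RNA levels do not show phosphorylation, which carries most of the signal in this pathway.

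The numbers of reads behind the TPM, recovered from the steps between values, ran from 2670469 to 20302454 in Humanized HuR KD, from 3169425 to 19891555 in Humanized LacZ, from 12960373 to 38026575 in WT HuR KD and from 1423985 to 44668272 in WT LacZ. In humanized livers these are reads on human genes alone. They vary with the human share of the liver as well as with sequencing depth, and these were not told apart. Deep and deepest mean the most such reads. Of the humanized livers, the 2 deepest (HuR KD replicate 4 and LacZ replicate 2) resembled each other more than their own groups (r = 0.567 between them after centering each gene, against at most 0.0799 between any other humanized liver and its nearest). Values without these 2 libraries, or without the 2 shallowest WT libraries (HuR KD replicate 6 and LacZ replicate 2), are given where they moved a result. HuR mRNA was lower with no overlap in both models. Its knockdown mean was 61.0% of the control mean in humanized livers and 51.7% in WT livers. ELAVL1 (ENSG00000066044.15) was at 4.05, 2.37, 3.54 and 3.90 TPM in Humanized HuR KD and at 5.76, 4.77, 6.17 and 5.99 TPM in Humanized LacZ. Elavl1 (ENSMUSG00000040028.10) had a lowest, median and highest level of 3.72, 4.97 and 5.62 TPM in WT HuR KD and of 8.58, 9.49 and 10.7 TPM in WT LacZ.

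By the rule of an unadjusted p under 0.05 in limma, 2 of the 10 genes passed in humanized livers (STK38L and WWTR1, both lower), where 11.5% of the 12738 genes tested did (3.6% higher and 7.87% lower). In WT livers 3 of 10 passed (Stk38 and Yap1 higher, Wwtr1 lower), where 16% of the 15090 genes tested did (9.09% higher and 6.94% lower). After Benjamini-Hochberg adjustment over all genes the counts were 0 of 10 in humanized livers (background 0.212%) and 1 of 10 in WT livers, Stk38 (background 0.888%). The targeted gene itself did not pass this adjustment in humanized livers (ELAVL1) and passed it in WT livers (Elavl1). Groups did not overlap for 1 of 10 genes in each model, WWTR1 in humanized livers (background 7.16%) and Stk38 in WT livers (background 2.49%). The median log2 fold change of the 10 genes was -0.12 in humanized livers, beside -0.05 for all genes, and -0.02 in WT livers, beside 0.03 for all genes. Since these genes were chosen by this comparison, nothing is read from these counts. Without the 2 deepest libraries the count in humanized livers was 3 (with STK38), and without the 2 shallowest libraries that in WT livers was 4 (with Lats1).

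**Figure D1:**
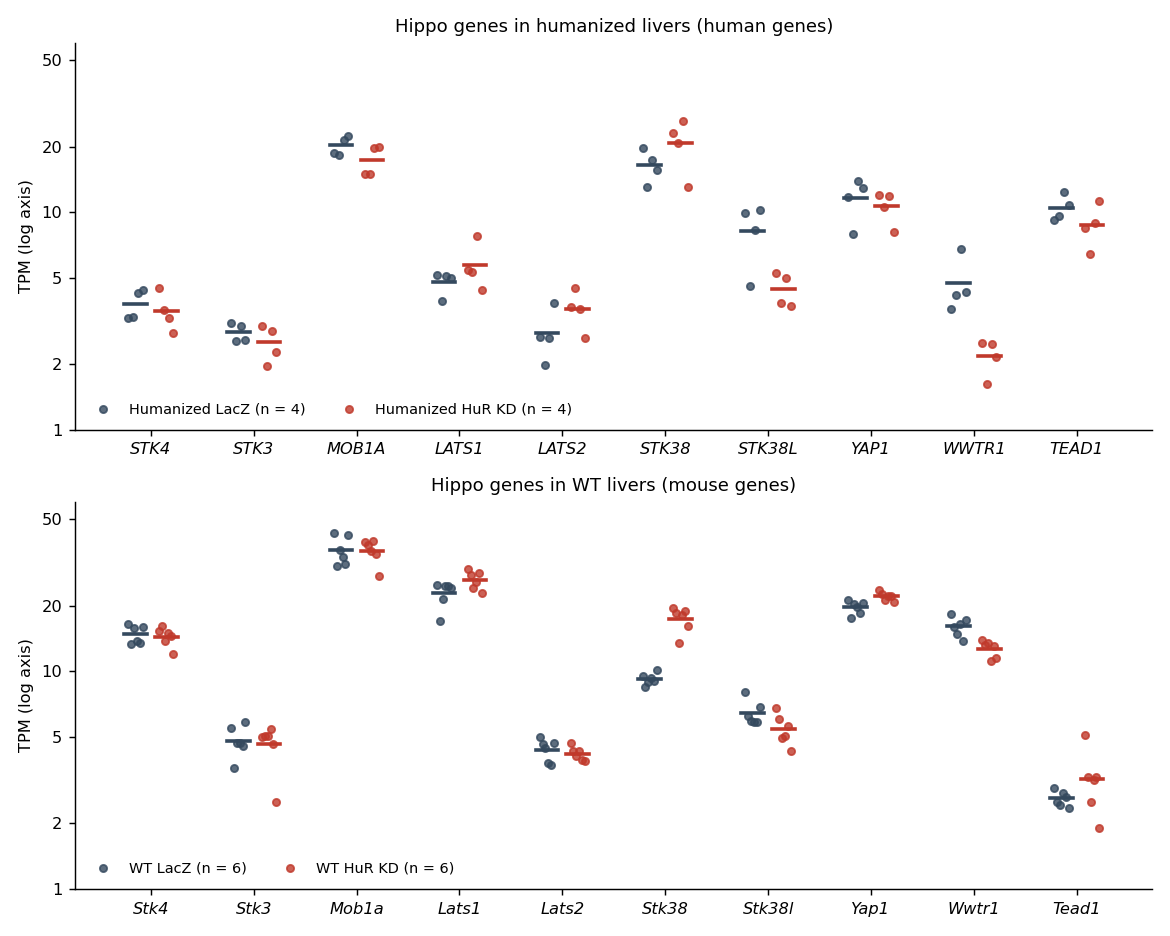
TPM on a log axis of the 10 Hippo genes in each of the 8 humanized livers (top, human genes) and 12 WT livers (bottom, mouse genes), with a point per liver and a line at the mean of each group. WWTR1 in humanized livers and Stk38 in WT livers are the 2 cases in which the knockdown and control points do not overlap.

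In control livers the order of levels differed between the models. TPM is scaled by gene length, so genes were set side by side within a liver, but the gene lengths used are not stated. The tables were normalized apart, so no level was compared across them. In Humanized LacZ livers MOB1A was highest at 20.2 ± 2.01 TPM (SD, n = 4), followed by STK38 at 16.4 ± 2.83, YAP1 at 11.7 ± 2.62, TEAD1 at 10.5 ± 1.40, STK38L at 8.23 ± 2.59, LATS1 at 4.78 ± 0.578, WWTR1 at 4.70 ± 1.42, STK4 at 3.80 ± 0.599, STK3 at 2.81 ± 0.282 and LATS2 at 2.78 ± 0.766 TPM. Neighbors in this order overlapped in range, except STK4 and STK3. In WT LacZ livers Mob1a was again highest at 36.0 ± 5.57 TPM (SD, n = 6), followed by Lats1 at 22.8 ± 3.14, Yap1 at 19.7 ± 1.39, Wwtr1 at 16.1 ± 1.65, Stk4 at 14.8 ± 1.41, Stk38 at 9.25 ± 0.581, Stk38l at 6.45 ± 0.869, Stk3 at 4.80 ± 0.787, Lats2 at 4.37 ± 0.507 and Tead1 at 2.61 ± 0.208 TPM. Mob1a stood clear of Lats1, Stk4 of Stk38, Stk38 of Stk38l, and Lats2 of Tead1, and the other neighbors overlapped. TEAD1, a DNA-binding partner of YAP and TAZ, was thus at rank 4 of 10 among the human genes of humanized livers and last of 10 in WT livers. WT values include non-hepatocyte cells, while human values hold little from endothelial, Kupffer or stellate cells. The gene lengths used enter these ranks too. In WT LacZ replicate 1, 1560 reads of Stk38 gave 9.547 TPM and 553 reads of Stk38l gave 8.017 TPM. In Humanized LacZ replicate 1, 274 reads of STK38 gave 19.65 TPM and 265 reads of STK38L gave 9.929 TPM. Cell content, species and gene length cannot be told apart in these ranks.

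Within each pair of paralogs the same gene had the higher TPM in control livers of both species. The choice of genes named WWTR1 and Stk38 by a comparison that includes these control livers, so the pairs with them are given with no test. In WT LacZ livers Stk4 exceeded Stk3 by 1.45 on the log2(TPM + 1) scale (difference of Stk3 minus Stk4 -1.45 ± 0.12, SD, n = 6), Lats1 exceeded Lats2 by 2.14 ± 0.28, Stk38 exceeded Stk38l by 0.47 ± 0.14, and Yap1 exceeded Wwtr1 by 0.28 ± 0.12. Each of these held in 6 of 6 livers. For Stk3 against Stk4 and Lats1 against Lats2 this gave p = 0.03125 in a two-sided exact permutation test (sign flips over livers), which is the smallest p that 6 livers allow and is unchanged by adjustment over the 4 pairs. This p speaks for the same order in every liver. Gene lengths or ambiguous reads that act alike in all libraries enter it too, so it does not show which mRNA is more abundant. In Humanized LacZ livers the differences were -0.33 ± 0.22 for STK3 minus STK4, 0.63 ± 0.21 for LATS1 minus LATS2, 0.95 ± 0.31 for STK38 minus STK38L and 1.15 ± 0.33 for YAP1 minus WWTR1 (SD, n = 4). All 4 livers had the same order in each pair, and p = 0.125 for the STK3 and LATS1 pairs is the smallest that the exact permutation test can give with 4 livers.

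The MST kinases at the top of the cascade were nearly level between groups. STK4 was at 4.49, 3.56, 3.26 and 2.79 TPM in Humanized HuR KD and at 3.27, 3.29, 4.26 and 4.36 TPM in Humanized LacZ, a log2 fold change of -0.09 ± 0.17 (SE). STK3 was at 3.0, 1.96, 2.83 and 2.28 TPM against 3.10, 2.56, 3.0 and 2.58 TPM, a log2 fold change of -0.12 ± 0.17. Both ranges overlapped. In WT livers the lowest, median and highest levels of Stk4 were 12.0, 14.7 and 16.1 TPM with HuR KD and 13.3, 14.7 and 16.5 TPM with LacZ (log2 fold change -0.03 ± 0.08, SE). For Stk3 they were 2.52, 5.004 and 5.42 TPM against 3.60, 4.67 and 5.84 TPM (-0.06 ± 0.15, SE). The low value of Stk3 belongs to HuR KD replicate 6, a shallow library. Without the 2 shallowest libraries the log2 fold change of Stk3 was 0.0010.

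MOB1A, the activating subunit that LATS kinases need, had the highest mean TPM of the 10 genes in every group but Humanized HuR KD. There the mean of STK38 was higher. Its values were 15.03, 14.97, 19.7 and 19.9 TPM in Humanized HuR KD and 18.7, 18.4, 21.4 and 22.5 TPM in Humanized LacZ (log2 fold change -0.21 ± 0.15, SE), so 2 of 4 knockdown livers lay below all controls. Without the 2 deepest libraries it was -0.32. In WT livers Mob1a spanned 27.5, 36.9 and 39.5 TPM (lowest, median, highest) with HuR KD and 30.4, 34.6 and 43.2 TPM with LacZ (-0.01 ± 0.11). Its sign in WT livers turned when any of 4 single livers was left out, and it was 0.02 without the 2 shallowest libraries.

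The LATS kinases, which phosphorylate YAP and TAZ, overlapped between groups and did not pass the unadjusted threshold in either model. LATS1 was at 5.44, 5.31, 7.75 and 4.41 TPM in Humanized HuR KD and at 5.12, 3.91, 5.09 and 4.98 TPM in Humanized LacZ. This gave a log2 fold change of 0.20 ± 0.18 (SE), with 3 of 4 knockdown livers above all controls, and 0.07 without HuR KD replicate 3 or 0.13 without LacZ replicate 2. LATS2 was at 3.66, 4.49, 3.58 and 2.65 TPM against 2.66, 1.98, 2.65 and 3.82 TPM (0.29 ± 0.20, and 0.18 without LacZ replicate 2). In WT livers Lats1 had a lowest, median and highest level of 22.8, 26.7 and 29.6 TPM with HuR KD and 17.0, 24.4 and 24.9 TPM with LacZ (0.21 ± 0.10), and 4 of 6 knockdown livers were above all controls. The control at 17.0 TPM was LacZ replicate 2, the shallowest library, and without it the log2 fold change was 0.13. Lats2 spanned 3.88, 4.19 and 4.66 TPM against 3.71, 4.52 and 4.97 TPM (-0.05 ± 0.08).

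The NDR kinases had log2 fold changes of opposite sign to each other. Mouse Stk38 (ENSMUSG00000024006.17, minus strand of chromosome 17 from 28970880 to 29007995 in GRCm38) had a lowest, median and highest level of 13.5, 18.3 and 19.5 TPM in WT HuR KD and of 8.51, 9.18 and 10.2 TPM in WT LacZ. Every knockdown liver was above every control, and the knockdown mean of 17.4 ± 2.26 TPM was 188.5% of the control mean of 9.25 ± 0.581 TPM (SD, n = 6 each). Its log2 fold change was 0.84 ± 0.09 (SE), and by p it ranked first among the genes that were higher in WT livers. The value stayed between 0.81 and 0.91 when each liver was left out in turn and was 0.84 without the 2 shallowest libraries. It rests on 58 to 3199 reads per library.

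Human STK38 (ENSG00000112079.9) had the same sign with overlap and did not pass the unadjusted threshold. It was at 23.1, 20.8, 26.1 and 13.1 TPM in Humanized HuR KD and at 19.7, 13.0, 17.4 and 15.6 TPM in Humanized LacZ, so that 3 of 4 knockdown livers exceeded all controls and the deepest, replicate 4, sat at the bottom of the control range. The log2 fold change was 0.30 ± 0.22 (SE) with all livers and 0.39 without the 2 deepest. It was 0.18 without HuR KD replicate 3, 0.49 without HuR KD replicate 4 and 0.20 without LacZ replicate 2.

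The paralog STK38L (ENSG00000211455.8) had a negative sign in both species, past the unadjusted threshold in humanized livers and not in WT livers. Human STK38L was at 5.23, 3.81, 4.97 and 3.69 TPM in Humanized HuR KD and at 9.93, 4.56, 8.23 and 10.2 TPM in Humanized LacZ, a knockdown mean 53.8% of the control mean. The groups overlapped through 1 control liver, the deep LacZ replicate 2 at 4.56 TPM. The log2 fold change was -0.73 ± 0.24 (SE), and -0.89 without the 2 deepest libraries. Mouse Stk38l (ENSMUSG00000001630.13, plus strand of chromosome 6 from 146724995 to 146778812) had a lowest, median and highest level of 4.31, 5.30 and 6.75 TPM in WT HuR KD and of 5.82, 6.07 and 8.02 TPM in WT LacZ, with 4 of 6 knockdown livers below all controls (log2 fold change -0.21 ± 0.10, SE).

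YAP1 and WWTR1 encode the related co-activators YAP and TAZ. Human WWTR1 (ENSG00000018408.14) was at 2.52, 1.61, 2.46 and 2.15 TPM in Humanized HuR KD and at 3.58, 4.15, 6.78 and 4.30 TPM in Humanized LacZ. Every knockdown liver was below every control, and the knockdown mean of 2.19 ± 0.414 TPM was 46.5% of the control mean (SD, n = 4). The log2 fold change was -0.82 ± 0.20 (SE), lay between -0.91 and -0.66 when each liver was left out, and was -0.86 without the 2 deepest libraries. With a pseudocount of 0.1 it was -1.05, and with voom on the recovered reads -1.02. These levels are low, resting on 28 to 383 reads per library. Mouse Wwtr1 (ENSMUSG00000027803.14, minus strand of chromosome 3 from 57455649 to 57575910) had a lowest, median and highest level of 11.2, 13.1 and 13.9 TPM in WT HuR KD and of 13.8, 16.2 and 18.4 TPM in WT LacZ. Of the 6 knockdown livers 5 were below all controls, and the remaining liver and the lowest control lay at 13.9 and 13.8 TPM. The log2 fold change was -0.32 ± 0.08 (SE), and -0.29 without the 2 shallowest libraries.

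Human YAP1 (ENSG00000137693.14) overlapped between groups and did not pass the unadjusted threshold. It was at 12.0, 10.6, 11.8 and 8.07 TPM in Humanized HuR KD and at 11.8, 7.96, 13.96 and 12.9 TPM in Humanized LacZ, a log2 fold change of -0.11 ± 0.20 (SE). In both groups the lowest liver was the deep library (8.07 and 7.96 TPM). Mouse Yap1 (ENSMUSG00000053110.13, minus strand of chromosome 9 from 7931999 to 8004596) had a lowest, median and highest level of 20.8, 22.2 and 23.6 TPM in WT HuR KD, and its controls ran from 17.6 to 21.3 TPM with the middle 2 at 19.7 and 20.3 TPM. It was higher in 4 of 6 knockdown livers than in any control, with a log2 fold change of 0.16 ± 0.06 (SE).

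TEAD1, the transcription factor that YAP and TAZ bind on DNA, had opposite signs in the 2 models. It was at 8.45, 6.38, 8.88 and 11.2 TPM in Humanized HuR KD and at 9.18, 9.60, 12.3 and 10.8 TPM in Humanized LacZ (log2 fold change -0.25 ± 0.18, SE). The high knockdown liver was the deep replicate 4, and without the 2 deepest libraries the log2 fold change was -0.40. Mouse Tead1 had a lowest, median and highest level of 1.90, 3.21 and 5.08 TPM in WT HuR KD and of 2.36, 2.58 and 2.90 TPM in WT LacZ (0.18 ± 0.15), so the knockdown livers spread to both sides of the controls. The mouse value was 0.07 without HuR KD replicate 1, the liver at 5.08 TPM, 0.28 without HuR KD replicate 6 and 0.27 without both shallow libraries, and the human value -0.13 without HuR KD replicate 2. Neither passed the unadjusted threshold.

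**Figure D2:**
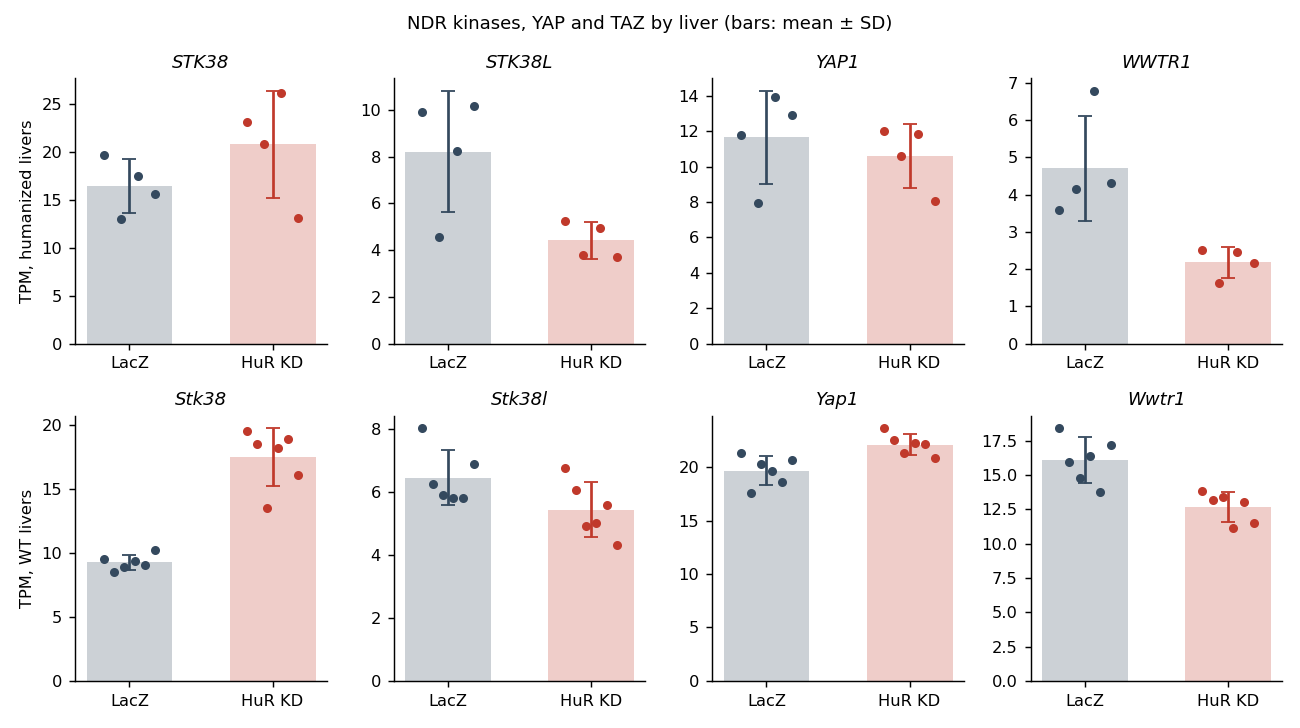
TPM of STK38, STK38L, YAP1 and WWTR1 in humanized livers (top row, n = 4 per group) and of their mouse counterparts in WT livers (bottom row, n = 6 per group), with points for livers and bars with error bars for the mean ± SD. Stk38 was at 188.5% of control in WT livers, and WWTR1 at 46.5% of control in humanized livers and at 78.9% in WT livers.

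The share of each gene in its pair needs no scaling between libraries. STK38 made up 82.0% ± 2.98 (SD, n = 4) of the summed TPM of STK38 and STK38L in Humanized HuR KD and 67.2% ± 5.56 in Humanized LacZ, with ranges of 78.0 to 84.5% and 60.4 to 74.0%. In WT livers the share was 76.2% ± 2.28 with HuR KD and 59.0% ± 2.66 with LacZ (SD, n = 6), with ranges of 73.2 to 78.8% and 54.4 to 61.6%. The ranges of knockdown and control livers were thus apart in both models, the 2 deep and 2 shallow libraries included. The same was true of YAP1 in the sum of YAP1 and WWTR1. Its share was 82.8% ± 3.21 against 71.2% ± 5.46 in humanized livers (78.9 to 86.8% and 65.8 to 76.7%) and 63.6% ± 1.77 against 55.1% ± 2.12 in WT livers (61.3 to 66.5% and 52.4 to 57.8%). The shares of STK3 (41.7% against 42.7% in humanized livers, 23.9% against 24.4% in WT livers) and of LATS1 (61.2% against 63.7%, and 86.2% against 83.7%) overlapped between groups. These shares come from the comparison that chose the genes, and the STK38 and YAP1 pairs each hold a gene chosen for its shift. How often the shares of other gene pairs are apart was not examined, so the shares are a description.

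**Figure D3:**
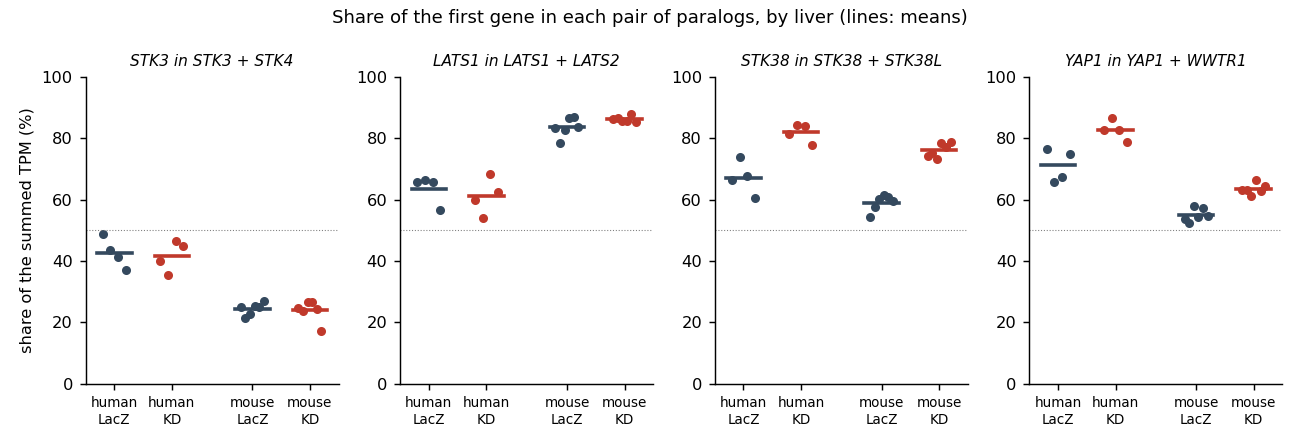
Share in percent of the first gene in the summed TPM of each pair of paralogs, with a point per liver, lines at group means, and a dotted line where both genes would be equal. Knockdown and control livers were apart for STK38 and for YAP1 in both models (82.0% against 67.2% and 82.8% against 71.2% in humanized livers), and overlapped for STK3 and LATS1. The STK38 and YAP1 pairs each hold a gene chosen for its shift in this comparison.

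Set side by side, the log2 fold changes of humanized minus WT livers differed by -0.54 ± 0.21 (SE) for STK38, -0.51 ± 0.23 for STK38L, -0.50 ± 0.18 for WWTR1, -0.44 ± 0.22 for TEAD1, 0.33 ± 0.18 for LATS2 and -0.27 ± 0.17 for YAP1 in a joint fit. For LATS1 (0.00 ± 0.18), STK3 (-0.06 ± 0.21), STK4 (-0.06 ± 0.16) and MOB1A (-0.21 ± 0.18) the differences were smaller than their standard error or close to it. The joint fit took a single residual spread per gene for both models, so these standard errors can be too small. The models differ in species, shRNA, remaining HuR mRNA, host strain and transplantation, and these cannot be told apart.

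**Figure D4:**
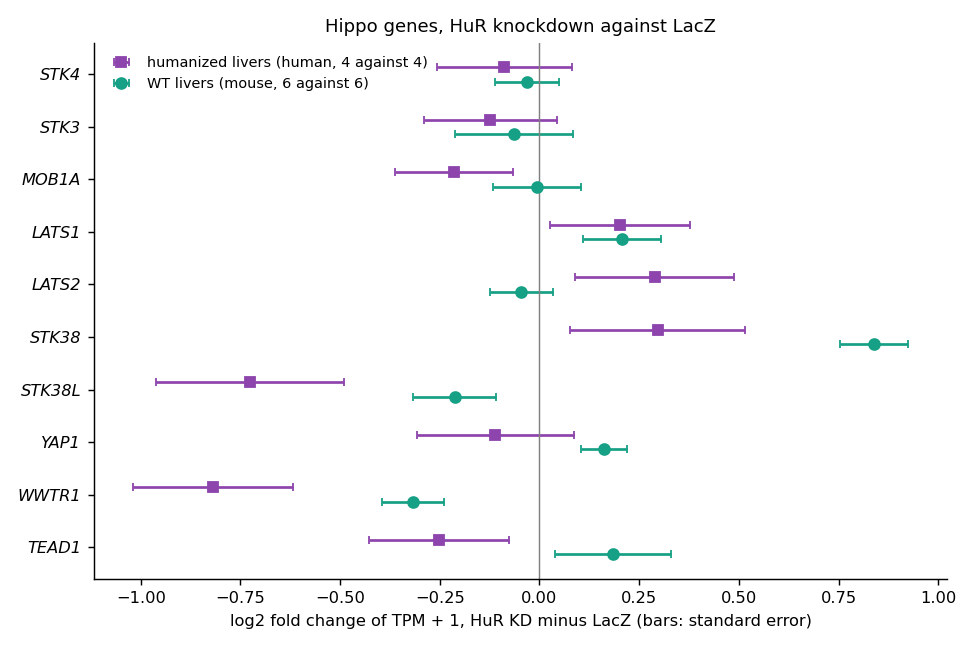
Log2 fold change of TPM + 1, HuR KD minus LacZ, of the 10 genes in humanized livers (squares, 4 against 4) and WT livers (circles, 6 against 6), with bars for the standard error. STK38 lies right of 0 and STK38L and WWTR1 lie left of 0 in both models, and TEAD1 lies on opposite sides (-0.25 and 0.18).

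HuR is known to bind AU-rich and U-rich RNA, so the 3′ UTRs of the mouse genes were searched on the transcript strand for ATTTA, the core of AU-rich elements, and for 7 consecutive T (TTTTTTT), counting overlapping matches. ATTTA and TTTTTTT cannot overlap each other. Of 10851 mouse genes tested with a 3′ UTR of at least 50 bases, 67.6% held ATTTA and 41.8% held TTTTTTT. All 10 Hippo genes held ATTTA, as did 78.8 to 100% of genes with UTRs of like length. The 3′ UTR of Stk38, the gene that was higher, has 1666 bases with 2 ATTTA and 0 TTTTTTT, where genes with UTRs of like length had a median of 3 and 1. That of Wwtr1, which was lower, has 3277 bases with 9 ATTTA and 13 overlapping TTTTTTT, against medians of 5 and 4 at like length. Stk38l, which was lower without passing, held 2 ATTTA and 14 TTTTTTT (medians at like length 5 and 3). Yap1 held 5 and 0 (4 and 2), Lats1 10 and 14 (6 and 4), Lats2 6 and 3 (2 and 1), Stk3 4 and 3 (2 and 0), Stk4 3 and 0 (6 and 5), Mob1a 4 and 0 (6 and 4) and Tead1 15 and 10 (16 and 14.5). Motif numbers above and below the medians were thus found among genes with either sign. In each UTR the window of 30 bases with the most ATTTA, and among these the most T, is shown for the NDR kinases, YAP and TAZ, from GENCODE transcripts on GRCm38, in DNA letters 5′ to 3′ along the mRNA, with ATTTA in capitals. All 4 lie in the 3′ UTR within the last exon.
Stk38, chr17:28971437-28971466, minus strand, exon 14 of 14: actgaATTTAgcacaaagtgccttctctgt
Stk38l, chr6:146777105-146777134, plus strand, exon 14 of 14: tcagctcctgATTTAttttggtgagtcctt
Yap1, chr9:7933719-7933748, minus strand, exon 8 of 8: gtatttcttggttttttaacatcctATTTA
Wwtr1, chr3:57457540-57457569, minus strand, exon 7 of 7: ttATTTAtaatctatgaATTTAatctcttt

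The Wwtr1 window holds 2 separate ATTTA and those of the other 3 genes 1 each. A match is a description of the letters and not a site of HuR binding. The human 3′ UTRs were not analysed here.

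The other genes of the pathway were followed in 5 lists, none of which holds any of the 10 genes above. In humanized livers 12 of 68 tested genes passed an unadjusted p under 0.05 (17.6%, beside 11.5% of all genes), 2 of them higher and 10 lower. In WT livers 11 of 76 passed (14.5%, beside 16% of all genes), 6 higher and 5 lower. In limma with Benjamini-Hochberg adjustment over all genes 0 of them passed in either model, so each call in these lists rests on an unadjusted p under 0.05, and the adjusted p is printed. Of all genes tested, 7.16% in humanized and 2.49% in WT livers had groups that did not overlap. Among all humanized genes called, 31.3% were higher, and this share was 47.5% after median-of-ratios scaling and 44.1% with voom on the recovered reads.

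Among upstream regulators and scaffolds, 4 of 22 tested genes fell and 0 rose in humanized livers (median log2 fold change -0.15, beside -0.05 for all genes). FAT1, a giant atypical cadherin, fell from 61.9 ± 10.9 to 32.2 ± 4.66 TPM (SD, n = 4 each), with log2 fold change -0.92 ± 0.16 (SE), limma adjusted p = 0.0638. All 4 knockdown livers were below all controls for FAT1 and for WWC2, a KIBRA-family scaffold of LATS kinases (-0.60 ± 0.17, limma adjusted p = 0.210). MAP4K4, a kinase that can act on LATS beside the MST kinases, fell by 0.64 on the log2 scale (limma adjusted p = 0.264), and MOB1B, the paralog of MOB1A, by 0.47 (limma adjusted p = 0.322). For MOB1B too all 4 knockdown livers were below all controls, and its call was lost without LacZ replicate 1 or 4. In WT livers 2 of 24 rose and 1 fell (median 0.04, beside 0.03 for all genes). Mouse Fat1 rose from 17.8 ± 1.94 to 23.7 ± 3.83 TPM (SD, n = 6 each), with log2 fold change 0.38 ± 0.11 (SE), limma adjusted p = 0.111. Ajuba, a LIM protein that binds and restrains LATS kinases, rose by 0.23 (limma adjusted p = 0.261), a call lost in 7 of 12 fits that left out a liver. Taok1, a kinase that can activate MST kinases, fell by 0.24 (limma adjusted p = 0.160). Without the 2 shallowest WT libraries 5 genes of this list passed.

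Partners of NDR and MST kinases and members of the STRIPAK phosphatase complex, which holds MST kinases inactive, gave 1 call of 16 in humanized livers (median 0.00, beside -0.05 for all genes). This was MOB4, a STRIPAK subunit, which rose from 2.96 ± 0.832 to 4.74 ± 0.606 TPM (SD, n = 4 each; log2 fold change 0.56 ± 0.19, SE, limma adjusted p = 0.293), and all 4 knockdown livers exceeded all controls. Without the 2 deepest libraries 2 genes of the list passed. In WT livers 3 of 17 passed (median 0.03, beside 0.03 for all genes). Mob2, known as a binding partner of NDR kinases, rose from 6.83 ± 0.502 to 8.20 ± 0.367 TPM, and 6 of 6 knockdown livers were above all controls (log2 fold change 0.23 ± 0.06, SE, limma adjusted p = 0.0905). The smaller calls were Mob3b (0.40 ± 0.18, limma adjusted p = 0.304) and Strn, a STRIPAK scaffold, lower by a log2 fold change of -0.17 ± 0.07 (limma adjusted p = 0.271). They were lost in 9 and 6 of 12 fits that left out a liver, and Mob3b also without a filter on TPM, with a pseudocount of 0.1 and with eBayes without trend, Strn also without the 2 shallowest libraries.

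Among the nuclear partners of YAP and TAZ, 4 of 7 tested genes passed in humanized livers (median -0.08, beside -0.05 for all genes). TEAD3, a relative of TEAD1, rose from 2.39 ± 0.558 to 4.28 ± 0.539 TPM (SD, n = 4 each; log2 fold change 0.65 ± 0.17, SE, limma adjusted p = 0.171). TEAD2 fell by 0.99 (limma adjusted p = 0.317) from 2.32 ± 0.968 to 0.688 ± 0.539 TPM. It passed the filter of 1 TPM through the control livers alone, which favors a fall, and without it 3 of 6 genes passed with a median of -0.04. VGLL4, which competes with YAP for TEAD factors, fell by 0.66 (limma adjusted p = 0.264), and SMAD2, a transducer of TGF-beta signals, by 0.40 (limma adjusted p = 0.391). The call of SMAD2 was lost in 5 of 8 fits that left out a liver and after median-of-ratios or quantile scaling and without the 2 deepest libraries, where 3 genes of the list passed, and that of TEAD2 without LacZ replicate 1 or 3 and with voom. All 4 of these genes had means below 5 TPM in both groups. In WT livers 1 of 6 passed (median 0.13, beside 0.03 for all genes), Arid1a, a chromatin remodeler subunit, which rose by 0.25 (limma adjusted p = 0.254), and 0 of 6 passed without the 2 shallowest libraries.

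The turnover list holds the ubiquitin ligase and 14-3-3 proteins that degrade or retain phosphorylated YAP and TAZ. In humanized livers 2 of 13 fell (median -0.19, beside -0.05 for all genes). YWHAZ, a 14-3-3 protein, fell from 27.7 ± 2.08 to 17.5 ± 1.55 TPM (SD, n = 4 each; log2 fold change -0.63 ± 0.12, SE, limma adjusted p = 0.0897). FBXW11, a substrate-binding subunit of the ligase, fell from 22.2 ± 5.02 to 12.4 ± 0.513 TPM (-0.77 ± 0.18, limma adjusted p = 0.124), and for both genes all 4 knockdown livers were below all controls. SFN passed the filter through the control livers alone, and the median without it was -0.17. Without the 2 deepest libraries 4 genes of this list passed. In WT livers 1 of 13 passed (median 0.07, beside 0.03 for all genes), and it was Fbxw11, which rose from 28.2 ± 1.249 to 32 ± 1.64 TPM (SD, n = 6 each; 0.18 ± 0.05, SE, limma adjusted p = 0.122).

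Of 21 target genes of YAP and TAZ, 10 were tested in humanized livers, 1 fell and 0 rose, with a median log2 fold change of -0.40 beside -0.05 for all genes. The gene that fell was ASAP1, a GTPase regulator (-0.65 ± 0.24, SE, limma adjusted p = 0.335), a call lost without LacZ replicate 1 or 4. The best known targets, CCN2 (CTGF), CCN1 (CYR61) and ANKRD1, had log2 fold changes of -0.81 ± 0.44, 0.00 ± 0.24 and -1.03 ± 0.49 (SE) and did not pass (limma adjusted p = 0.525, 1 and 0.473). They were at 1.27 against 3.34, 1.46 against 1.495, and 0.231 against 1.997 TPM. ANKRD1 passed the filter through the control livers alone, which favors a low fold change, and the median of the list without it was -0.31. These 3 genes were singled out after their values were seen. Without the 2 deepest libraries 3 genes of the list passed. In WT livers 3 of 16 fell and 0 rose, with a median of -0.09 beside 0.03 for all genes. They were Amotl2, a scaffold that also binds YAP (-0.27 ± 0.09, SE, limma adjusted p = 0.176), Axl, a receptor tyrosine kinase (-0.32 ± 0.11, limma adjusted p = 0.180), and Gadd45a, a stress response gene (-0.44 ± 0.20, limma adjusted p = 0.310). The call of Gadd45a was lost in 8 of 12 fits that left out a liver and with voom or quantile scaling. Mouse Ccn2 and Ccn1 had log2 fold changes of 0.23 ± 0.16 and -0.41 ± 0.24 (SE) and did not pass.

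**Figure D5:**
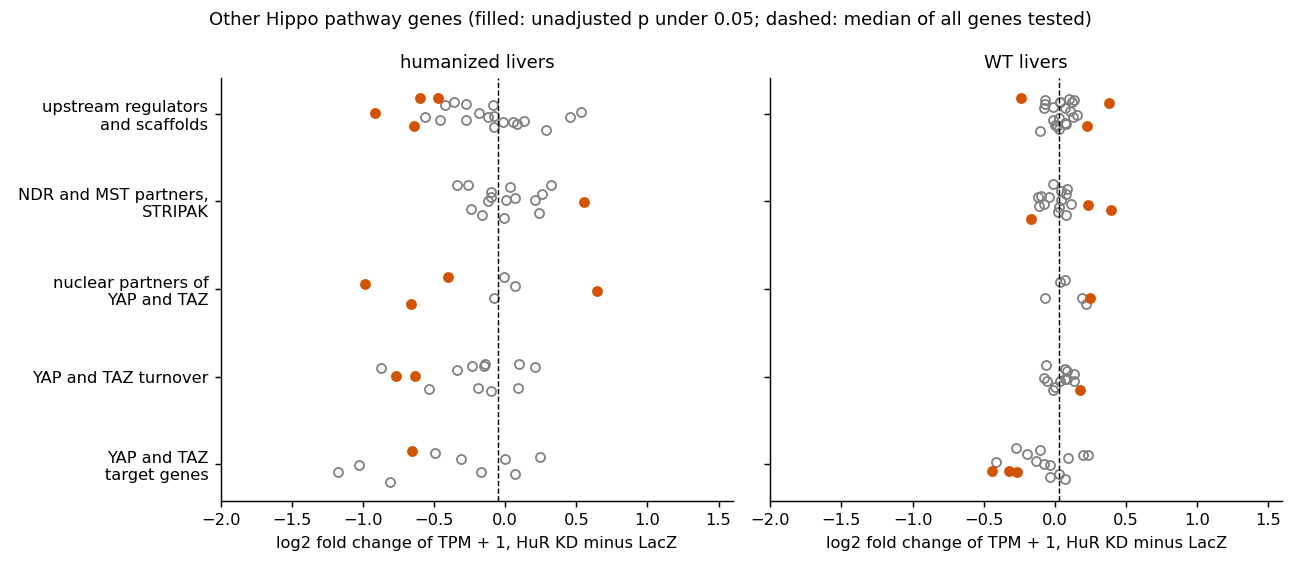
Log2 fold change of TPM + 1, HuR KD minus LacZ, of each tested gene of the 5 lists in humanized livers (left, 68 genes) and WT livers (right, 76 genes), with filled points for an unadjusted limma p under 0.05 and a dashed line at the median of all genes tested. In humanized livers 10 of the 12 filled points lie at negative values, and in WT livers 5 of 11.

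The difference between the models was tested for the 63 pathway genes outside the 10 that passed the filter in both tables, in a joint fit over 8192 pairs of genes with the same symbol. It passed a Benjamini-Hochberg adjusted p under 0.05 for 7 of 63 (4.99% of all pairs did). This fit took a single residual spread per gene for both models. Fitted apart, the standard error for FBXW11 was 0.1754 in humanized and 0.0522 in WT livers. The p-values of the joint fit can therefore be too small. The smallest p belonged to FAT1, which fell in humanized and rose in WT livers (difference of log2 fold changes, humanized minus WT, -1.30 ± 0.19, SE, limma adjusted p = 0.000523). FBXW11 followed with the same pair of directions (-0.94 ± 0.16, limma adjusted p = 0.00155), and then YWHAZ (-0.56 ± 0.13, limma adjusted p = 0.0126), which fell in humanized livers and had a log2 fold change of -0.08 ± 0.07 in WT livers. FAT1, FBXW11 and YWHAZ passed in all 24 alternative fits.

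The genes whose levels followed these 3 patterns most closely were found by Pearson's r of log2(TPM + 1) over the livers of a model, both groups together, so a shared shift between groups and shared library depth enter r. For Stk38 over 12 WT livers they included Rpl12, a ribosomal protein (r = 0.966), and the noncoding RNA Gm26608 (r = 0.962). For Wwtr1 they were Perp (r = 0.933), Ypel5 (r = 0.930) and Tmem30a (r = 0.923). For WWTR1 over 8 humanized livers they were TP53BP1 (r = 0.969), STXBP5 (r = 0.966) and the noncoding RNA FTX (r = 0.958).

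YAP and TAZ are made by several cell types of the liver, and in bulk tissue fewer cells of a type and less RNA per cell cannot be told apart. The humanized table lists human genes alone, and markers of human endothelial cells, Kupffer cells and lymphocytes were near 0 in it, while those of cholangiocytes were not. The 10 endothelial markers summed to at most 1.82 TPM in any liver and the 10 Kupffer cell markers to at most 1.24 TPM, with CLEC4F, MARCO, VSIG4, C1QA and C1QB at 0 in every liver. The lymphocyte markers summed to at most 5.45 TPM. The 10 stellate cell and fibroblast markers summed to 3.18 to 5.88 TPM with HuR KD and 5.59 to 7.81 TPM with LacZ, DES and HAND2 were at 0 throughout, and 1 of 2 tested fell. The 8 cholangiocyte markers summed to 22.5 to 44.0 TPM and 28.8 to 58.1 TPM, KRT19 stayed below 1 TPM, and 2 of 5 tested fell. Hepatocyte markers summed to 44740 to 73930 TPM with HuR KD and to 47450 to 95540 TPM with LacZ, and 1 of 10 rose. Of all genes tested in humanized livers, 7.87% were called lower and 3.6% higher.

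Of all genes tested in WT livers, 6.94% were called lower and 9.09% higher. In WT livers the 10 stellate cell and fibroblast markers summed to 186 to 235 TPM with HuR KD and 195 to 251 TPM with LacZ, and 3 of 10 fell. Kupffer cell and macrophage markers summed to 446 to 748 TPM and 624 to 851 TPM, and 5 of 9 tested fell. Endothelial markers (179 to 225 and 178 to 222 TPM, 1 of 10 rose), cholangiocyte markers (38.6 to 53.2 and 33.1 to 54.3 TPM, 0 of 3 called), lymphocyte markers (10.8 to 20.2 and 15.8 to 25.9 TPM, 0 of 5 called) and hepatocyte markers (92220 to 105100 and 88340 to 100700 TPM, 1 of 9 fell) overlapped between groups, as did the sums of stellate and Kupffer cell markers. The part of these cell types in the values of Wwtr1, Yap1 and the target genes was not tested.

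Some of the genes overlap neighbors in their genome span, introns included, and whether exons are shared was not examined. Stk4 overlaps Tomm34 on the opposite strand (6.24 to 8.51 TPM) and Stk38 overlaps a small nuclear RNA gene, Gm23887, on its own strand (at most 4.72 TPM). Also on the same strand, Gm11455 overlaps Stk4 (at most 4.63 TPM), Gm44462 overlaps Tead1 (at most 2.43 TPM) and Gm44270 overlaps Stk38l (at most 1.78 TPM). The library kit kept the strand, but whether counting used it is not given in the sources used here. The human antisense RNA WWTR1-AS1 was at most 0.729 TPM and the intronic RNA WWTR1-IT1 at most 2.72 TPM, and the paralogs of each pair may share ambiguous reads.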

How the data were processed

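RNA from 20 mouse livers was analysed (Humanized HuR KD and Humanized LacZ, 4 each, WT HuR KD and WT LacZ, 6 each, grouped by sample titles). The authors used cutadapt for trimming, HISAT2 for alignment (mouse GENCODE M23, or a combined human v32 and mouse index for humanized livers) and featureCounts for counting. The deposited values are TPM, and every library sums to 1000000. Aligner settings and TPM formula are not given in the sources used here. Each table was normalized, and here fitted, apart. The 10 genes and all lists were chosen with earlier results of these data known.

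Log2(TPM + 1) was compared for genes averaging 1 TPM or more with limma 3.58.1 in R 4.3.3 (lmFit, eBayes with trend). The study's threshold, an unadjusted p under 0.05, was kept, with Benjamini-Hochberg values beside it. Fold changes on this scale understate those of low genes. Paralogs were compared within livers by exact sign-flip permutation, and models by a joint limma fit. Read numbers were recovered as the whole numbers behind the steps of TPM for 18702 human and 25110 mouse genes (100% of genes above 0 in at least 4 libraries), with Python 3.11.15, numpy 2.4.6, pandas 2.3.3 and numba 0.67.0. A 3′ UTR is that of the principal transcript of GENCODE M21 (GRCm38), with like length meaning 0.8 to 1.25 times. Exact tests used scipy 1.17.1, and figures matplotlib 3.10.9. Scripts were tested on simulated data.

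Named are the 10 genes, ELAVL1, up to 4 called genes per list, the 3 smallest p between models, and 3 like genes each for Stk38, Wwtr1 and WWTR1, of which 1 is not reported here. Alternatives were a pseudocount of 0.1, a minimum mean of 5 TPM or none, median-of-ratios and quantile scaling, eBayes without trend, voom on recovered reads, a replicate block and each liver left out. Leaving out or blocking the 2 deepest humanized and leaving out the 2 shallowest WT livers was chosen after seeing the data. Mouse genes of humanized livers were not analysed here.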

Additional observations from a re-analysis of the deposited data

Results flagged for a closer look

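Of the 40 groups of values of the 10 genes, 2 held a liver far from the others by Dixon's test, and chance gives about 1 in 20. LATS1 was at 3.91 TPM in Humanized LacZ replicate 2, a deep library, with the other 3 controls between 4.98 and 5.12 TPM. Stk3 was at 2.52 TPM in WT HuR KD replicate 6, a shallow library, with the other knockdown livers between 4.64 and 5.42 TPM. The part of depth in these 2 values, and of the human share of the liver in that of LATS1, was not tested.

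The joint limma fit took a single residual spread per gene, so its p-values can be too small. In it the response of 7 pathway genes differed between humanized and WT livers. For 6 of them the log2 fold change was lower in humanized livers, by -1.30 for FAT1, -0.94 for FBXW11, -0.56 for YWHAZ, -0.73 for VGLL4, -0.77 for MAP4K4 (limma adjusted p = 0.0257) and -0.67 for WWC2 (limma adjusted p = 0.0402). For MOB4 it was higher, by 0.67 (limma adjusted p = 0.0338). VGLL4 (limma adjusted p = 0.0162) also passed in all 23 alternative fits that could be made for it, MAP4K4 in 20 of 24, MOB4 in 11 of 23 and WWC2 in 8 of 23. Those losses came when single livers were left out, and the adjusted p over the alternatives reached 0.0664 for MAP4K4, 0.0746 for MOB4 and 0.0921 for WWC2. The same sign in 6 of 7 genes is set beside a median log2 fold change of all genes of -0.05 in humanized and 0.03 in WT livers.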

How the results depend on the processing

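For the 10 genes, all 383 values under the alternatives lay within 1 SD of the main value. Not all lay within 1 SE, since human WWTR1 went from -0.82 ± 0.20 (SE) to -1.05 with a pseudocount of 0.1. STK38L, WWTR1, Stk38 and Wwtr1 kept their signs under all alternatives, and signs turned only for YAP1, Stk3, Stk4 and Mob1a. A mean TPM of at least 5 left 6 human genes to test, of which 1 was called, and called 931 genes in humanized livers. After adjustment, genes called were 27 (humanized) and 134 (WT), and of the 10 genes 0 and 1. Quantile scaling called 5 of the 10 in WT livers, and leaving out single livers 3 to 5.

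The small counts per list moved readily. In humanized livers, the partners of NDR and MST kinases went from 1 to 2 (no filter, voom, without the 2 deepest livers, block for these), 0 (mean TPM of at least 5) and 1 to 3 (single livers left out). The target genes went from 1 to 0 (mean TPM of at least 5, replicate block), 2 (median-of-ratios, eBayes without trend), 3 (without or with a block for the 2 deepest) and 0 to 4 (single livers left out). Turnover genes went from 2 to 4 without the 2 deepest and 2 to 4 without single livers, nuclear partners from 4 to 0 at a mean TPM of at least 5, and upstream regulators from 4 to 7 with a block for the 2 deepest. In WT livers, upstream regulators went from 3 to 6 (voom), 5 (without the 2 shallowest) and 2 to 5 (single livers), NDR and MST partners to 1 (replicate block) and 1 to 4 (single livers), nuclear partners from 1 to 3 (no filter), 2 (voom), 0 (without the 2 shallowest) and 0 to 3 (single livers), and turnover genes to 1 to 2 (single livers). The cause was not tested, beyond fewer genes being tested at the higher filter. Differences between models went from 7 to 4 at a mean TPM of at least 5 and 4 to 15 without single livers.

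Replicate numbers did not pair the livers. Correlations of deviations between livers of one number ran from -0.249 to 0.137 in humanized and from -0.142 to 0.206 in WT livers. With the replicate block 1401 humanized and 2242 WT genes were called, and 2 and 4 of the 10 genes. The list calls of SMAD2 and ASAP1 in humanized and of Strn, Mob3b and Gadd45a in WT livers were lost with it.

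Over all humanized livers, knockdown included, paralog differences were -0.34, 0.59, 1.46 and 1.51 in the order above, given with no test since knockdown values chose the genes. In WT controls with 1 liver left out they ran from -1.48 to -1.41, 2.08 to 2.23, 0.44 to 0.51 and 0.25 to 0.31, where 5 livers cannot reach the threshold.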
